A study of Mus musculus with 9 samples.

Results

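The genes described here are 10 components of the small RNA pathways of the mouse oocyte: Dicer1, Dgcr8, Tarbp2 and Prkra of the microRNA and endogenous siRNA pathways, and Ddx4, Piwil2, Piwil4, Mael, Tdrd1 and Mov10l1 of the piRNA pathway. They were chosen by symbol from a table of 23235 genes, and all 10 are in it. The study separated nuclei from cytoplasms of day 21 oocytes by micromanipulation and sequenced total RNA, with 10 nuclei or cytoplasms in a sample. Its groups are wild-type (WT) nucleus with 3 libraries in the labels, WT cytoplasm with 2, MTR4-null nucleus with 2 and MTR4-null cytoplasm with 2. MTR4 is an RNA helicase that hands nuclear transcripts to the exosome, the main RNA-degrading complex of the nucleus. The strain of the mice, the construct of the null allele and the promoter of any Cre are not given in the sources used here.

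Small RNAs of all these pathways guide Argonaute proteins to RNAs with matching sequence. MicroRNA precursors are cut in the nucleus by the Microprocessor, made of Drosha and Dgcr8, and in the cytoplasm by Dicer, which also makes endogenous siRNAs from long double-stranded RNA. PIWI-interacting RNAs (piRNAs) arise without Dicer, in granules of the germ cell cytoplasm, and silence transposons through Argonautes of the PIWI branch. Mouse oocytes are known for an abundant siRNA pathway served by an oocyte form of Dicer, for weak microRNA activity, and for piRNA genes whose loss sterilizes males far more often than females.

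Levels are the authors' mean FPKM, fragments scaled to transcript length and sequencing depth, with 1 column per group. Single libraries have no column, so no value has a replicate error, no test was possible, and each difference describes 4 columns. Differences are on the scale of log2(FPKM + 1), which understates differences of weakly expressed genes. A gene is called apart where 2 columns differ by at least 2-fold on that scale, that is by 1 or more. Genes tested are the 14270 at 1 FPKM or more in at least 1 column, which takes in 9 of the 10 members and leaves out Piwil4.

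The Mtr4 transcript, listed as Skiv2l2, was at 16.2 FPKM in WT nuclei and 2.91 in MTR4-null nuclei, and at 21.6 and 2.51 FPKM in the cytoplasms. All 12 oocyte markers looked up reached 1 FPKM in every column, with summed levels of 6506 to 10586 FPKM. Markers of granulosa and cumulus cells summed to between 45.2 and 76.9 FPKM, with 8 to 12 of 15 at 1 FPKM or more and Amh listed at 0 in the WT nucleus. Theca and stroma markers summed to 1.72 to 9.40 FPKM, with Acta2 and Dcn listed at 0 in the WT nucleus, and blood and immune markers to 0.0845 to 1.70. Endothelial markers summed to 5.85 to 22.2 FPKM, most of it Pecam1, and Cdh5 was listed at 0 in both WT columns. The part of these other cells in the values below was not tested. Genes of small RNAs such as snoRNAs held 57.7% of summed FPKM in WT nuclei and 53.5% in MTR4-null nuclei, and 4.09% and 39.0% in the cytoplasms. FPKM is a relative measure. The median log2 difference between genotypes over all genes tested was 0.21 in the nucleus and -0.26 in the cytoplasm. It was -0.72 in the cytoplasm for 2606 abundant genes, those with 20 FPKM or more throughout. In such pools a lower level in each oocyte and a smaller share of oocytes with the transcript cannot be told apart.

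Expression of the members spanned several orders of magnitude. Tdrd1 and Dicer1 led in every column and stood above 94.6% to 97.9% of all listed genes. Mael, Ddx4 and Tarbp2 followed in WT, and Dgcr8 stood in the middle. Piwil2 and Mov10l1 were low, and Prkra and Piwil4 lay at or below about 1 FPKM. Without MTR4 the order changed mainly through Mael, which dropped from place 3 in both WT columns to place 7 in the MTR4-null nucleus and place 6 in the MTR4-null cytoplasm. Piwil2 stood at place 7 in the WT nucleus and place 8 in the WT cytoplasm, and at places 6 and 7 in MTR4-null. The errors of neighbouring levels are unknown, so near ties such as Dicer1 and Tdrd1 in the nuclei have no established order.

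**Figure D1:**
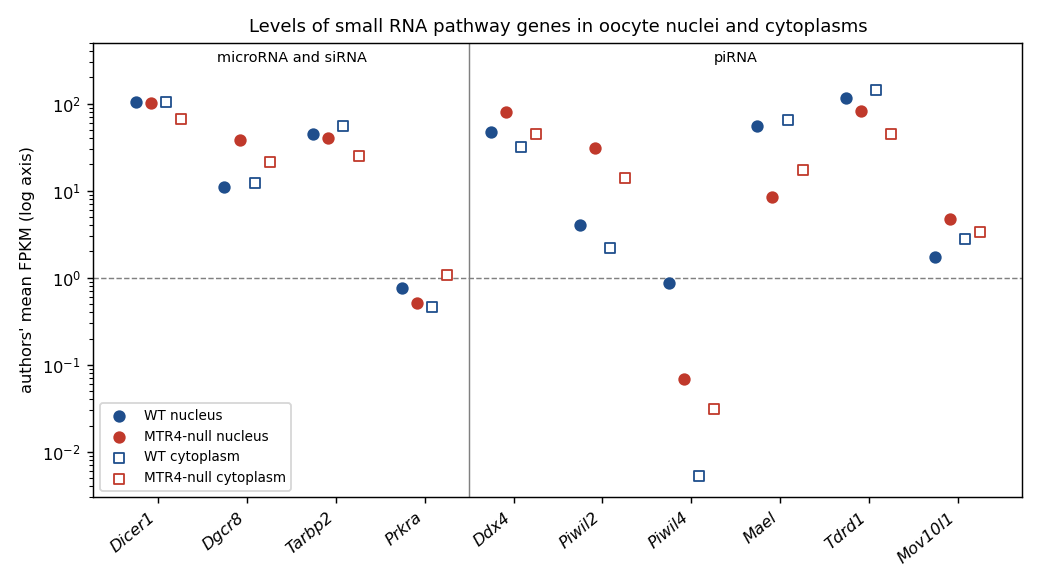
Authors' mean FPKM (log axis) of the 10 genes in nuclei and cytoplasms of WT and MTR4-null oocytes, 1 point per column; the dashed line marks 1 FPKM. The MTR4-null points of Piwil2, Dgcr8 and Mov10l1 lie above both WT points. Those of Mael, Tdrd1, Tarbp2 and Dicer1 lie below both, that of Dicer1 in the nucleus only slightly.

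Dgcr8 encodes the RNA-binding partner of Drosha in the Microprocessor. WT oocytes had 11.1 FPKM in nuclei and 12.1 in cytoplasms, MTR4-null oocytes 37.7 and 21.5. Both MTR4-null columns were above both WT columns. The ratio of MTR4-null to WT was 3.40 in the nucleus and 1.77 in the cytoplasm, or 1.68 and 0.78 on the log2(FPKM + 1) scale. Of all genes tested, 89.0% had a lower nuclear difference. Over 7 alternative scalings and pseudocounts the nuclear difference ran from 1.40 to 1.76, and the cytoplasmic one, below the 2-fold line as deposited, from 0.63 to 1.35.

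The Dgcr8 transcript is also a Microprocessor substrate, since it folds into hairpins that Drosha can cut, and the microRNA gene Mir1306 lies in a coding exon. Its mature products, from RefSeq (GRCm38.p6, chromosome 16, minus strand), are printed to show what is read out of the same exon, with the seed, bases 2 to 8, in capitals.
mmu-miR-1306-5p: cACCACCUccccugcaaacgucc
mmu-miR-1306-3p: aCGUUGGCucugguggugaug
The 5p arm lies at chr16:18284288-18284310 and the 3p arm at chr16:18284248-18284268. The 2 seeds differ. Mir1306 had its own row, at 121 FPKM in WT nuclei and 10.1 in MTR4-null cytoplasms, with values near 0 in the other columns. The annotated hairpin is 79 bases long, shorter than the selected cDNA of 300 to 400 bp, so its FPKM is a poor estimate. How fragments of that exon were divided between both rows is unknown.

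Dgcr8 has further overlaps that may bear on its value. The span of the predicted coding gene Gm49776, on the same strand, overlaps that of Dgcr8 over 4374 bases, introns included. The longest alignment of their transcripts is 328 bases at 100% identity. A microRNA gene on the same strand, Gm24572, overlaps the span of Dgcr8 over 88 bases. A processed pseudogene, Gm43555, matches 309 bases of Dgcr8 at 99.0% identity. No value is given here for any of these. The end of Dgcr8 also shares 825 bases with Trmt2a, a tRNA methyltransferase gene on the opposite strand. Trmt2a was at 6.83 FPKM in WT nuclei, 13.4 in MTR4-null nuclei, 6.70 in WT cytoplasms and 6.22 in MTR4-null cytoplasms, so that it too was higher in the MTR4-null nucleus. The sources used here do not say whether fragments were counted by strand, and the part of these genes in the Dgcr8 values was not tested.

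Dicer1 encodes the nuclease that makes microRNAs and endogenous siRNAs. In WT it was at 103 FPKM in nuclei and 104 in cytoplasms, and in MTR4-null at 102 and 66.1. Thus 3 columns were alike and the MTR4-null cytoplasm was lower. There Dicer1 stood at 63.8% of WT, a log2 difference of -0.64, which is close to the median of abundant genes. The nuclear difference was -0.01. The alternatives gave -0.65 to 0.05 for the cytoplasmic value, so its sign depends on the scaling. One row covers the whole gene, and the somatic and oocyte forms of Dicer cannot be separated in it.

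Tarbp2 encodes TRBP, a double-stranded RNA-binding partner of Dicer. Nuclei had 45.0 FPKM with MTR4 and 40.5 without it, and cytoplasms 55.0 and 24.9. As with Dicer1, the nuclei were close and the MTR4-null cytoplasm was lower, at 45.3% of WT or -1.11 on the log2 scale. That difference passed the 2-fold line as deposited and shrank to between -0.85 and -0.53 in the 4 alternatives that rescale whole columns. Tarbp2 has the highest GC content of the members, 57.5% of its transcript. Coding genes tested were ordered by GC content into 5 groups of equal size, and in the group that holds Tarbp2 the median nuclear difference was 0.60, against -0.15 for Tarbp2. The median cytoplasmic difference of that group was -0.0015. Centred within its group, Tarbp2 therefore stayed past the 2-fold line in the cytoplasm, at -1.11. The longest alignment of the Tarbp2 transcript with a processed pseudogene, Gm18584, is 603 bases at 99.3% identity. With another, Gm18561, it is 567 bases at 93.3%, so that some fragments may not be unique to Tarbp2.

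Prkra encodes PACT, the other double-stranded RNA-binding partner of Dicer and an activator of the kinase PKR. WT oocytes had 0.759 FPKM in nuclei and 0.461 in cytoplasms, MTR4-null oocytes 0.517 and 1.08. Only the last column reached the minimum of 1 FPKM. Its genotype differences of -0.21 in the nucleus and 0.51 in the cytoplasm rest on such low levels. In every column Tarbp2 was the far more abundant of this pair of Dicer partners.

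Piwil2 encodes MILI, the PIWI protein that binds piRNAs in the germ cell cytoplasm. In WT it was at 4.07 FPKM in nuclei and 2.201 in cytoplasms, and in MTR4-null at 30.5 and 14.1. Both MTR4-null columns were well above both WT columns. The ratio of MTR4-null to WT was 7.49 in nuclei and 6.39 in cytoplasms, and the log2(FPKM + 1) differences were 2.63 and 2.24. Of the genes tested, 96.3% had a lower difference in the nucleus and 96.1% in the cytoplasm. Over the alternatives the differences stayed past the 2-fold line, at 1.97 to 2.88 in the nucleus and 1.41 to 2.76 in the cytoplasm. Small RNA genes on the same strand overlap the span of Piwil2, introns included, the snoRNA gene Gm22725 over 110 bases and the snRNA gene Gm24890 over 102. Their part in the Piwil2 values was not tested.

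Piwil4 encodes MIWI2, the nuclear PIWI protein known from fetal male germ cells. Nuclei had 0.878 FPKM with MTR4 and 0.0692 without it, and cytoplasms 0.00535 and 0.0314. It was therefore below the minimum in every column. On the opposite strand, an antisense transcript model, Gm10706, overlaps the gene span over 14417 bases and a processed pseudogene, Gm15586, over 528. Which of these genes gave the low values cannot be told from the row.

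Mov10l1 encodes the germ cell helicase that feeds piRNA precursors into processing. WT oocytes had 1.71 FPKM in nuclei and 2.80 in cytoplasms, MTR4-null oocytes 4.71 and 3.30. The MTR4-null nucleus was the highest column. The log2 difference of 1.07 there was just past the 2-fold line and fell short of it, at 0.53 to 0.92, in 6 of 7 alternatives. In the cytoplasm it was 0.18, with a range of -0.01 to 0.70. An snRNA gene on the same strand, Gm23737, overlaps the span of Mov10l1, introns included, over 159 bases, and its part in these values was not tested.

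Ddx4 encodes the Vasa helicase, a marker of germ cells and their granules. In WT it was at 47.1 FPKM in nuclei and 31.5 in cytoplasms, and in MTR4-null at 79.0 and 44.6. MTR4-null was the higher column within each compartment, although the MTR4-null cytoplasm was below the WT nucleus. The log2 differences were 0.73 in the nucleus and 0.49 in the cytoplasm. They stayed above 0 in all 7 alternatives, with ranges of 0.53 to 0.81 and 0.44 to 1.07.

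Tdrd1 encodes a Tudor-domain protein that holds MILI in the granules. Nuclei had 117 FPKM with MTR4 and 83.0 without it, and cytoplasms 143 and 45.3. Both MTR4-null columns were below both WT columns. The MTR4-null cytoplasm stood at 31.6% of WT, a log2 difference of -1.64, and 5.10% of genes tested had a lower one. Over the alternatives this value ran from -1.66 to -0.98, the last under quantile normalization, and the nuclear difference of -0.49 ran from -0.69 to -0.47.

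Mael encodes Maelstrom, a germ granule protein needed for transposon silencing. WT oocytes had 55.2 FPKM in nuclei and 64.7 in cytoplasms, MTR4-null oocytes 8.52 and 17.1. Both MTR4-null columns were far below both WT columns. Mael in MTR4-null stood at 15.4% of WT in the nucleus and 26.5% in the cytoplasm, or -2.56 and -1.86 on the log2(FPKM + 1) scale. Only 0.988% of genes tested had a lower difference in the nucleus and 2.92% in the cytoplasm. The alternatives gave -2.93 to -2.15 and -1.91 to -1.28, all past the 2-fold line.

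In the nucleus, 3 of the 10 members (Dgcr8, Piwil2 and Mov10l1) had at least 2-fold higher FPKM without MTR4, against 23.9% of all genes tested. Only Mael was at least 2-fold lower, against 12.3%. The median of the 9 members tested was -0.01, beside 0.21 for all genes tested, and with Piwil4 it was -0.08. In the cytoplasm only Piwil2 was at least 2-fold higher, against 15.0%, and Tarbp2, Mael and Tdrd1 were lower, against 21.4%. The median there was 0.18, beside -0.26, and with Piwil4 it was 0.11. Prkra entered the 9 only through its 1.08 FPKM in the MTR4-null cytoplasm, the column in which it was higher. The median of 0.18 is the value of Mov10l1, and the next lower value is -0.64, of Dicer1. Leaving out Prkra would lower this median, so it is not read as a difference from the whole table. With so few genes these shares are near those of the whole table, and the members had no common direction.

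The cytoplasmic split depended on scaling. Centring on genes that reach 1 FPKM in all 4 columns turned it to 4 higher and 2 lower, centring on all genes tested to 2 and 2, quantile normalization to 3 and 1, rescaling without small RNA genes to 3 and 2, and centring within the 5 GC groups to 3 and 3. In nuclei these settings left 2 higher and 1 lower, Mov10l1 being the one lost.

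**Figure D2:**
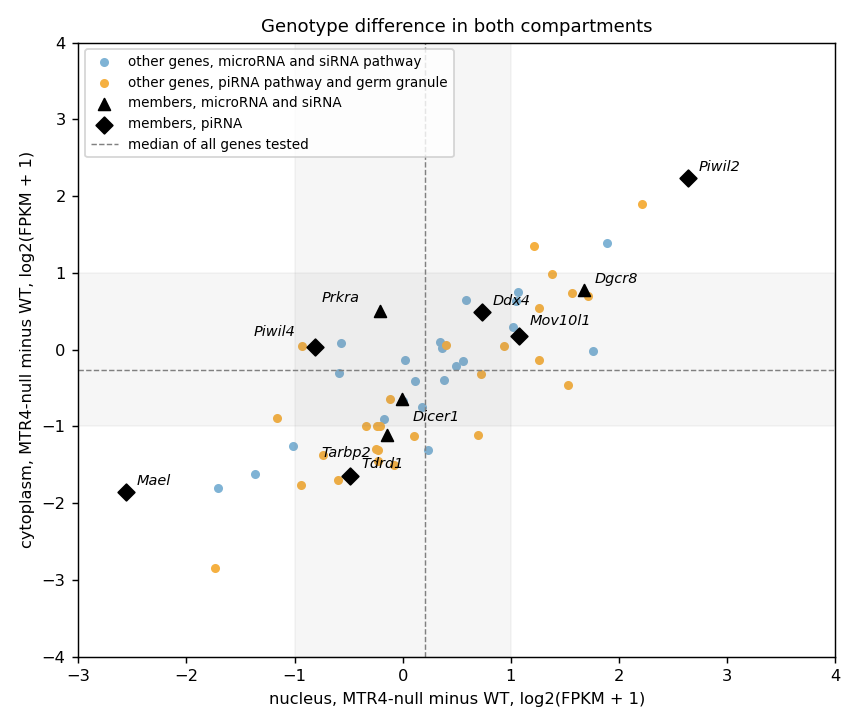
Difference between MTR4-null and WT in log2(FPKM + 1) in the nucleus (horizontal) and the cytoplasm (vertical) for the 10 members (black, named) and the other genes of the microRNA and piRNA pathways (coloured); grey bands mark less than 2-fold and dashed lines the medians of all genes tested. Piwil2, at 2.63 and 2.24, and Mael, at -2.56 and -1.86, lie at opposite corners.

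**Figure D3:**
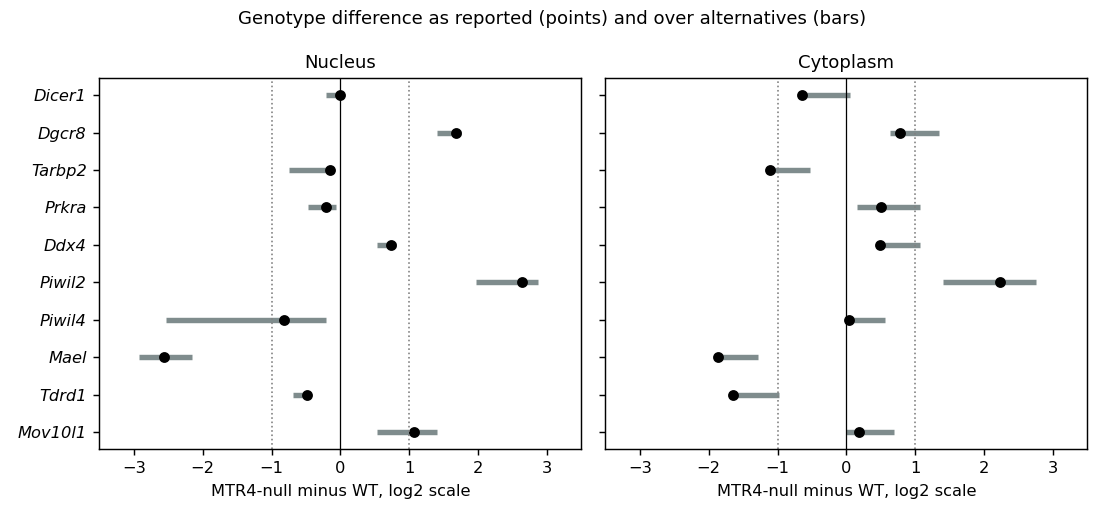
Difference between MTR4-null and WT in each compartment (log2 scale) for the 10 genes: points are the values as reported, bars the range over 7 alternative scalings and pseudocounts, and dotted lines 2-fold. The bars of Piwil2 and Mael stay past 2-fold in both compartments, while that of Dicer1 in the cytoplasm crosses 0.

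Between nucleus and cytoplasm of WT oocytes the members differed little. The share at least 2-fold higher in the nucleus was 0 of 10 members, against 12.4% of genes tested, and the share at least 2-fold lower was 0 of 10, against 4.71%. Among the abundant genes, those with 20 FPKM or more throughout, the shares were 0.959% and 0.921%. Having no such call was therefore not particular to the members. The median of the 9 tested was -0.12, beside -0.04 for all genes tested. Ddx4 and Piwil2 leaned to the nucleus, at 0.56 and 0.66, and Mov10l1 to the cytoplasm, at -0.49. How much cytoplasm came along with the nuclei was not tested.

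In MTR4-null oocytes, 8 of 10 members had the higher FPKM in the nucleus, as did 82.2% of all genes tested. Piwil2, at 1.06, was the single member at least 2-fold higher, against 17.0% of genes tested, and 0 members were at least 2-fold lower, against 1.84%. The median of the 9 tested, 0.68, lay near the 0.52 of all genes tested. Mael went the other way, with -0.93 between nucleus and cytoplasm, and only 2.13% of genes tested had a lower value. Prkra was also below 0, at -0.45. Once columns were centred or rescaled, Mael passed the 2-fold line at -1.68 to -1.45, and Piwil2 dropped to between 0.46 and 0.54. Malat1, an RNA kept in the nucleus, was at 8.63 FPKM in WT cytoplasms and 69.6 in MTR4-null cytoplasms. The part of nuclear RNA in that cytoplasm column, for the differences above, was not tested.

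The nucleus-to-cytoplasm ratio itself can be compared between genotypes by subtracting the WT difference from that of MTR4-null. Tdrd1, at 1.15, was the single member with a ratio at least 2-fold higher in MTR4-null, against 27.0% of genes tested, and 0 were at least 2-fold lower, against 10.7%. The median of the 9 tested was 0.63, beside 0.57. The call and its direction depended on scaling. In the 5 alternatives that centre or rescale columns, 0 members were at least 2-fold higher and Tdrd1 was at 0.36 to 0.59. Mael passed the line downward in all 5, at -1.59 to -1.27. Prkra, a gene of low level, did so at -1.43 to -1.07 in 4 of them, all but quantile normalization. As deposited, Tarbp2, Dgcr8 and Mov10l1 were at 0.96, 0.90 and 0.89. Piwil4, Prkra and Mael were below 0, at -0.85, -0.72 and -0.70, of which only Mael was well expressed.

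**Figure D4:**
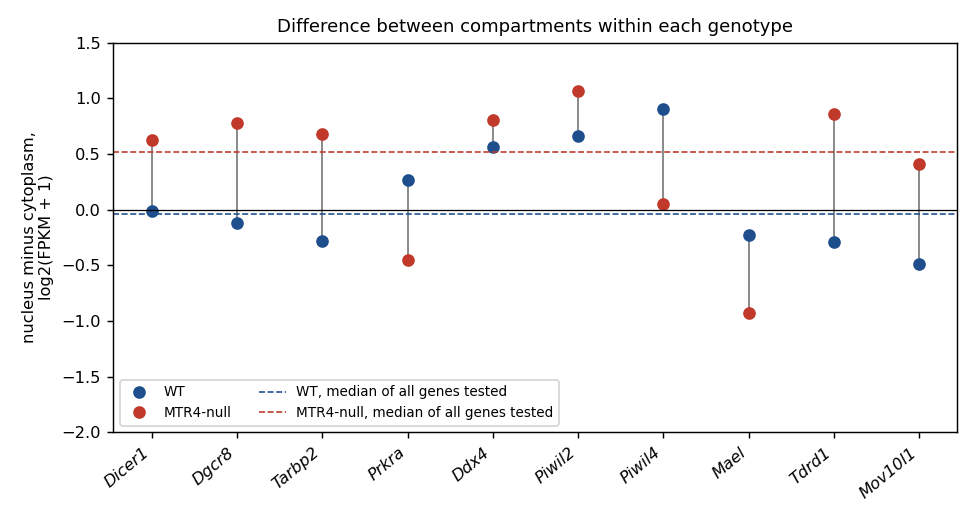
Difference between nucleus and cytoplasm in log2(FPKM + 1) for each gene in WT (blue) and MTR4-null (red), 1 value per genotype; dashed lines are the medians of all genes tested, -0.04 in WT and 0.52 in MTR4-null. Mael and Prkra lie below 0 in MTR4-null, and 7 of 10 genes have the higher value in MTR4-null, as do 71.5% of all genes tested.

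Other genes of the microRNA and siRNA pathways were read from a list of 22, of which 21 reached 1 FPKM in a column. Pairs of values below give WT first and MTR4-null second. In nuclei 5 of the 21 passed 2-fold upward in MTR4-null, or 23.8% against 23.9% of all genes tested, and 3 downward, or 14.3% against 12.3%. Their median difference was 0.34, beside 0.21. Of these calls, Tnrc6a upward and Ago3 and Tnrc6b downward held under every alternative available for them. Ddx17, Ran, Srrt and Mov10 upward and Lin28b downward fell short of 2-fold in at least 1. In cytoplasms 1 passed upward, or 4.76% against 15.0%, and 4 downward, or 19.0% against 21.4%, around a median of -0.15, beside -0.26. Ago3 and Tnrc6b again held downward, while Xpo5 and Lin28b downward and Tnrc6a upward fell short in at least 1 alternative. Drosha, the nuclease partner of Dgcr8, did not follow it: nuclei had 32.6 FPKM with MTR4 and 28.8 without it, and cytoplasms 34.1 and 17.9. Xpo5, the exporter of microRNA precursors, was at 16.5 and 19.6 FPKM in the nuclei and 24.5 and 9.33 in the cytoplasms. The Argonaute genes Ago2 and Ago3 are listed as Eif2c2 and Eif2c3. Ago2, the slicing Argonaute, was at 10.4 and 16.1 FPKM in the nuclei and 6.36 and 10.5 in the cytoplasms. Ago3 had the opposite direction, at 22.8 and 6.28 FPKM in the nuclei and 17.4 and 4.27 in the cytoplasms.

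The GW182 family, which links Argonautes to mRNA decay, was also divided. Tnrc6a was at 3.98 FPKM in WT nuclei and 17.4 in MTR4-null nuclei, and at 4.85 and 14.3 in the cytoplasms. Tnrc6b was at 24.9 and 9.02 FPKM in the nuclei and 21.6 and 6.36 in the cytoplasms. Both were past 2-fold in both compartments, in opposite directions, as they were under the 7 alternatives but for Tnrc6a in the cytoplasm with a pseudocount of 5, at 0.97. Tnrc6c, of the same family, was past 2-fold in neither compartment, at 23.4 and 34.8 FPKM in the nuclei and 32.5 and 29.2 in the cytoplasms. Mov10, the somatic relative of Mov10l1, was higher in the nucleus, at 1.36 and 6.9997 FPKM, with 2.38 and 2.35 in the cytoplasms. Srrt, which encodes ARS2, was at 23.0 and 49.2 FPKM in the nuclei and 18.0 and 31.0 in the cytoplasms.

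A list of 27 further piRNA pathway and germ granule genes had 8 at least 2-fold higher in MTR4-null nuclei, or 29.6% against 23.9% of all genes tested, and 2 lower, or 7.41% against 12.3%. The median was -0.08, beside 0.21. Tdrd5, Gpat2, Fkbp6, Henmt1 (listed as 4921515J06Rik) and Prmt5 upward and Piwil1 downward held under every alternative available for them. Tdrd6, Pld6 and Wdr77 upward and Exd1 downward fell short of 2-fold in at least 1. In cytoplasms 2 passed upward, or 7.41% against 15.0%, and 10 downward, or 37.0% against 21.4%. Of the abundant genes, 1.80% passed upward and 30.7% downward, so the downward share of the list was nearer to theirs. The median of the list in cytoplasms was -0.88, beside -0.26 for all genes tested and -0.72 for abundant genes. Of those 10, Piwil1, Rnf17 and Stk31 stayed at least 2-fold lower under every alternative. The other 7, Tdrd12, Tdrd3, Asz1, Gtsf1, Dnmt3l, Kif17 and Nanos2, fell short of 2-fold in at least 1, with smallest differences of -0.89 to -0.54. Piwil1, which encodes MIWI, was at 20.6 FPKM in WT nuclei, 5.49 in MTR4-null nuclei, 19.4 in WT cytoplasms and 1.85 in MTR4-null cytoplasms. It was thus lower without MTR4 in both compartments, the reverse of its relative Piwil2, with log2 differences of -2.17 to -1.29 in nuclei and -3.32 to -1.83 in cytoplasms over the alternatives. Gpat2, whose product is a mitochondrial partner of MILI, was higher in both, at 3.73 and 20.9 FPKM in the nuclei and 1.90 and 9.80 in the cytoplasms. Fkbp6, a chaperone partner, was at 6.07 and 19.9 FPKM in the nuclei and 8.90 and 15.5 in the cytoplasms, and Prmt5, which methylates PIWI proteins, at 4.52 and 17.1, and 5.65 and 9.77. Exd1 was at 26.7 and 11.4 FPKM in the nuclei and 17.5 and 9.04 in the cytoplasms. Stk31, a Tudor-domain kinase gene, was at 20.2 and 10.1 FPKM in the nuclei and 23.0 and 6.07 in the cytoplasms.

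For each member at 5 FPKM or more in at least 1 column, the gene with the most similar pattern was taken as the one with the smallest Euclidean distance in log2(FPKM + 1) over the 4 columns. Dicer1 was nearest to Pard3 at a distance of 0.06, Tarbp2 to Sap30l at 0.09, Dgcr8 to Cul4a at 0.15 and Tdrd1 to Tmem201 at 0.16. Piwil2 was nearest to Tcfl5 and Ddx4 to Psmb5, both at 0.21. Mael had the most distant neighbour, Agpat9 at 0.49. With only 4 columns, many unrelated genes can lie this close.

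The promoters were compared to see what the members share besides their pathway. RefSeq (GRCm38.p6) promoters, 250 bases before to 50 after a start site, were matched for 9 of 10 members, all but Piwil2. The E-box CACGTG, whose reverse complement is the same, occurred in 4 of these 9, Ddx4, Mael, Tdrd1 and Mov10l1. Among all genes with a promoter it occurred in 2187 of 27025, or 8.09%. The motif was in 0 of the 4 microRNA and siRNA members, and it was not in the promoters of the piRNA gene Piwil4 either. The bases around it are printed on the gene's strand, with the motif in capitals.
Ddx4: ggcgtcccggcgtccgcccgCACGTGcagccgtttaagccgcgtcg
Mael: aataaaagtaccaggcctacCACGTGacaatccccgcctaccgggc
Tdrd1: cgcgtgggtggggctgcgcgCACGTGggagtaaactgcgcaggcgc
Mov10l1: ccttCACGTGctaaccgccaacctctcgtg
These lie at chr13:112652314-112652359 (minus strand), chr1:166238942-166238987 (minus), chr19:56826178-56826223 (plus) and chr15:88982744-88982773 (plus). The first base of the motif is 29 bases before the start in Ddx4, 223 in Mael, 246 in Mov10l1, and 11 or 77 in Tdrd1 for 2 of its 3 annotated starts. The window of its other start does not hold the motif. Of the genes with the motif, Mael and Tdrd1 had lower values without MTR4 in both compartments as deposited, and Ddx4 and Mov10l1 higher ones. Below 2-fold were both differences of Ddx4, the cytoplasmic one of Mov10l1 and the nuclear one of Tdrd1. Any part of the motif in these differences was not tested. CG dinucleotides numbered 11 to 49 in the promoters of the 9 members, against a median of 8 for all genes, taking the start with the most where a gene has several. The motif itself holds a CG, so the 8.09% of all genes is no matched background for promoters this rich in CG. A gene with several starts was counted when any of them held the motif, and the motif was not in the written plan. A match describes letters in this window and is no evidence of a bound factor.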

How the data were processed

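The authors deposited 1 table of FPKM with 4 columns, 1 per genotype and compartment. Per the submitters' processing notes, TopHat2 2.1.1, Cufflinks 2.2.1 and mm9 were used, with settings not given in the sources used here. Of the 40 member values, 28 end in the repeating decimals of division by 3, although only the WT nucleus has 3 libraries in the labels. The number of values behind a column is therefore uncertain, and read depth is unknown. An unnamed row holding the column sums was left out.

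Differences were computed on log2(FPKM + 1) for 5 comparisons with Python 3.11.15 and pandas 2.3.3. The counting was tested on simulated columns, with changes well past 2-fold planted in well expressed genes. That check does not cover genes of low level, differences near the 2-fold line or the scaling of columns. No moderated model or permutation test could be run without library columns. The members and pathway lists were chosen with earlier results of these data known. All members were named. Of the lists, Drosha, Xpo5, Ago2, Piwil1 and the 2 genes with the largest difference in each direction per genotype comparison, with a level of 5 FPKM or more on the higher side, were named. Further genes were named only to complete a family or to say which calls held over the alternatives. GC content and length are those of the longest coding transcript in GENCODE M21 (GRCm38), matched by symbol. Copies were sought with blastn 2.17.0 at 90% identity over 150 bases, and the longest alignment per gene is given. Overlaps between genes are those of whole gene spans, introns included. Whether they touch an exon was looked up only for Mir1306. Coordinates are GRCm38.p6 and were not joined to mm9 data.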

Additional observations from a re-analysis of the deposited data

How the results depend on the processing

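Counts of members at least 2-fold apart were recomputed under 8 other settings and 1, centring within 5 groups of genes by GC content, chosen after seeing the data. The counts between genotypes, in nuclei and in cytoplasms, and between WT compartments stayed within 1.5 times. For the compartments of MTR4-null, the count of 1 went to 0 with a pseudocount of 5 and to 2, Prkra and Mael lower, with centring on genes that reach 1 FPKM in all 4 columns. The other 4 settings that centre or rescale columns kept a count of 1, but the member was Mael, lower, in place of Piwil2, higher. For the difference of compartment ratios, the count of 1, Tdrd1 higher, went to 3 with a pseudocount of 0.1, 2 higher and 1 lower. It went to 2 with either centring on all genes, centring on genes that reach 1 FPKM throughout, rescaling without small RNA genes, or centring within GC groups. In these 4 settings Tdrd1 was no longer called and the 2 were lower, Prkra and Mael. Quantile normalization kept a count of 1, but this was Mael, lower. The cause was not tested. No called value of a single member changed sign. No paired analysis was possible because the table has no column for a single library, and leaving out a replicate was not run for that reason.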
